A study of Mus musculus with 2 samples.

Results

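A set of 10 genes tied to muscle wasting was followed in single nuclei of mouse muscle. They are Fbxo32, Trim63, Fbxo30, Fbxo31, Fbxo21, Foxo1, Foxo3, Cblb, Sqstm1 and Ctsl. Each was matched by its symbol, and all 10 were found among the 32285 genes counted. The tissue was the tibialis anterior, a shin muscle, removed on day 5 after the femoral artery was ligated; the mice were males of 16 to 20 weeks and had chronic kidney disease. Of the 2 libraries, 1 came from AHRfl/fl mice, in which the gene of the aryl hydrocarbon receptor (Ahr) is floxed, and 1 from AHRmKO mice, in which it is deleted in muscle. The labels give both libraries the same cross, a floxed Ahr strain with a strain carrying a tamoxifen-inducible Cre under the ACTA1 promoter, which is active in muscle fibres. They do not give the number of animals, whether the AHRfl/fl mice carried Cre, or how the kidney disease was induced. No healthy, sham-operated or non-ischaemic muscle is in the series, so every value comes from ischaemic muscle of mice with kidney disease. With 1 library per group there is no replicate, no test was possible, and every interval covers counting error only.

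In a wasting fibre, proteins are tagged with ubiquitin by E3 ligases and degraded by the proteasome, while organelles are degraded by autophagy and in lysosomes. FOXO1 and FOXO3 are transcription factors that AKT keeps out of the nucleus when insulin or IGF1 signals. When that signal drops they enter the nucleus and activate Fbxo32 (atrogin-1) and Trim63 (MuRF1), the best known ligases of muscle atrophy. Glucocorticoids, which rise in many wasting states, act on the same genes through their receptor. Regenerating fibres express the embryonic myosin gene Myh3, which mature fibres do not, so Myh3 serves as a marker of newly formed fibres.

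The promoter of Trim63 is shown because it holds letter matches for both of these regulators, beside that of Foxo1, which was likewise lower in Myh3-high fibre nuclei. RefSeq windows on GRCm38.p6 were found for 9 of the 10 genes, all but Fbxo32. Printed are the 250 bases before each annotated start, 5′ to 3′ on the plus strand, chr4:134314870-134315119 for Trim63 and chr3:52268087-52268336 for Foxo1. Capitals mark matches to 3 motifs searched on both strands: the FOXO motif GTAAACA, the glucocorticoid receptor arm AGAACA and the E-box CANNTG. The arm is 1 side of the paired site to which the receptor binds, not the whole site.
Trim63: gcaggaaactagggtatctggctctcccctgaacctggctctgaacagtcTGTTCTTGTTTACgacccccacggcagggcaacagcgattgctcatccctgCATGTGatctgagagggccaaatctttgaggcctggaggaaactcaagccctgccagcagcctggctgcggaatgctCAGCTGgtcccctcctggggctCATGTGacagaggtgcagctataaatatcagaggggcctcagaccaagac
Foxo1: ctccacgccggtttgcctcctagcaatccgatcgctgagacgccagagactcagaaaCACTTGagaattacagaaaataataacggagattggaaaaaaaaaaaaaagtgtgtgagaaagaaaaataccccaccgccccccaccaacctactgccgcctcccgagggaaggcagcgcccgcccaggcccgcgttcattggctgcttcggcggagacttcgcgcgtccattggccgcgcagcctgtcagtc
In Trim63 a receptor arm at -200 stood directly before a FOXO motif at -194, without overlap, and E-boxes stood at -149, -72 and -50. Of the 9 windows, only that of Trim63 held the FOXO motif or the receptor arm, which 3.17% and 16.1% of all 32851 windows held. E-boxes, found in 66.2% of windows, also stood in Foxo1 at -193, Ctsl at -236 and Cblb at -171. These are letter matches, not measured binding. In GENCODE coordinates on GRCm38, Trim63 lies on chromosome 4 from 134315120 to 134329629 and Foxo1 on chromosome 3 from 52268336 to 52353221, both on the plus strand, and Fbxo32 on chromosome 15 from 58175879 to 58214932 on the minus strand. Fbxo32, Foxo1, Sqstm1 and Ctsl each overlap 1 gene on the opposite strand, each with fewer UMIs than they have, and whether counting used the strand is not given in the sources used here.

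The AHRfl/fl library held 151788328 UMIs (unique molecular identifiers, 1 per captured RNA molecule) and the AHRmKO library 113737134. Barcodes with 2000 or more UMIs numbered 19056 and 9015, and 43 of these barcode sequences occurred in both libraries. A barcode was taken as a fibre nucleus where Ttn, Neb, Trdn and Dmd, genes of the contractile apparatus, the calcium release complex and the membrane anchor of fibres, made up at least 1% of its UMIs. Fibre nuclei were called Myh3-high where Myh3 held at least 0.1% of UMIs and Myh3-low below that. Of all barcodes, 788 AHRfl/fl and 460 AHRmKO ones lay just inside the fibre threshold, at 1 to under 1.5%, and 1579 and 721 just outside it, at 0.5 to under 1%. This gave 3354 Myh3-high and 1790 Myh3-low nuclei in the AHRfl/fl library, and 1921 and 1850 in the AHRmKO library. Other nuclei were named from marker panels: 7592 and 2653 were macrophage-like, 1557 and 773 satellite-like (muscle stem cells and myoblasts), 1561 and 690 fibroblast-like, and 205 and 176 endothelial-like, AHRfl/fl first. Unnamed barcodes were 15.2% and 9.88%. Levels are given as UMIs per 1000000 UMIs of a class (CPM), with 95% Poisson intervals.

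RNA outside nuclei differed between the libraries. In barcodes of 200 to under 500 UMIs, which hold mostly free RNA, Myh3 was at 2912 CPM in the AHRfl/fl library and 427 CPM in the AHRmKO library. In Myh3-high nuclei it was at 2131 and 3685 CPM, so below the free level in the AHRfl/fl library and above it in the AHRmKO library. Myh3-low nuclei of the AHRfl/fl library had a median Myh3 share of 0.0540%, and those of the AHRmKO library a median of 0%. The split therefore cuts the libraries at different points: 970 AHRfl/fl nuclei had 0.05 to under 0.1% Myh3 and 1807 had 0.1 to under 0.2%, against 174 and 371 AHRmKO nuclei. The median mitochondrial share was 0.970% and 2.66% of UMIs. Ahr itself was at 24.0 and 22.0 CPM in Myh3-low nuclei and at 34.8 and 32.1 CPM in Myh3-high nuclei, beside 18.5 and 20.1 CPM in the barcodes of 200 to under 500 UMIs. Reads near the 3′ end of Ahr need not lie in its deleted part, so these levels do not check the deletion.

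Fbxo32 and Trim63 were highest in Myh3-low fibre nuclei in both libraries. Fbxo32, which encodes the substrate-binding part of a cullin ligase found mainly in striated muscle, was at 588 CPM (574 to 603) in Myh3-low and 53.7 CPM (50.5 to 57.0) in Myh3-high nuclei of the AHRfl/fl library. In the AHRmKO library it was at 406 CPM (392 to 420) and 31.6 CPM (28.3 to 35.2). The Myh3-high nuclei were thus 11.0-fold and 12.8-fold lower, with log2 ratios of -3.44 (-3.55 to -3.36) and -3.66 (-3.85 to -3.52).

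Trim63, a RING-type ligase that ubiquitinates thick-filament proteins, was at 778 CPM (762 to 795) in Myh3-low and 158 CPM (153 to 164) in Myh3-high nuclei of the AHRfl/fl library. In the AHRmKO library its levels were 579 CPM (562 to 596) and 170 CPM (162 to 178). The log2 ratios were -2.30 (-2.36 to -2.24) and -1.76 (-1.85 to -1.69). In both libraries the drop from Myh3-low to Myh3-high nuclei was smaller for Trim63 than for Fbxo32. Trim63 also stayed above its free RNA level (102 and 96.6 CPM) in Myh3-high nuclei, while Fbxo32 there lay below its own (59.6 and 97.6 CPM).

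Fbxo31, a further substrate receptor of cullin ligases, showed the same order at a lower level. It was at 46.8 CPM in Myh3-low and 16.5 CPM in Myh3-high nuclei of the AHRfl/fl library, and at 48.0 and 20.9 CPM in the AHRmKO library. The log2 ratios were -1.48 (-1.71 to -1.30) and -1.18 (-1.44 to -0.96), and the second fell short of 2-fold with a higher minimum of UMIs per nucleus (-0.66) and with fibre genes at 0.5% or more (-0.89). The remaining F-box genes did not show it. Fbxo30 (MUSA1), an atrophy ligase held down by BMP signalling, was at 44.1 and 46.1 CPM in Myh3-low and Myh3-high AHRfl/fl nuclei and at 49.8 and 54.7 CPM in AHRmKO nuclei. Its log2 ratios of 0.06 (-0.10 to 0.22) and 0.13 (-0.05 to 0.32) had intervals that span 0. Fbxo21 (SMART) was the scarcest, at 12.4 and 13.5 CPM and at 11.5 and 17.1 CPM, beside 12.2 and 11.2 CPM in the barcodes of 200 to under 500 UMIs. Its log2 ratios were 0.12 (-0.18 to 0.43) and 0.56 (0.21 to 0.95), so it was higher in Myh3-high AHRmKO nuclei. These passed 2-fold under 1 and 3 of 19 alternative settings, up to 1.17 and 2.87. Cblb, a ligase that restrains receptor signalling and in unloaded muscle degrades IRS1, was at 336 and 297 CPM in the AHRfl/fl library and at 271 and 223 CPM in the AHRmKO library, with log2 ratios of -0.18 and -0.28. The first was 0.12 with the split at 0.01% Myh3, and the second 0.02 with the median gene ratio set to 0. In barcodes of 200 to under 500 UMIs, Cblb was at 147 and 307 CPM, the second above both AHRmKO fibre levels. Barcodes of at most 100 UMIs, a second measure of free RNA, held Cblb at 243 and 235 CPM. The second of these lay between the AHRmKO Myh3-high and Myh3-low levels.

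Both transcription factors were lower in Myh3-high nuclei, Foxo1 by more than Foxo3 except in the AHRfl/fl library with the split at 0.5% Myh3. Foxo1 was at 252 CPM (243 to 262) in Myh3-low and 80.2 CPM (76.3 to 84.2) in Myh3-high nuclei of the AHRfl/fl library, a log2 ratio of -1.65 (-1.74 to -1.56), which was -0.60 with the split at 0.5% Myh3. In the AHRmKO library it was at 315 CPM (303 to 328) and 67.3 CPM (62.5 to 72.5), a log2 ratio of -2.22 (-2.35 to -2.11). Foxo3 was at 98.5 and 57.9 CPM in the AHRfl/fl library and at 84.0 and 44.6 CPM in the AHRmKO library, with log2 ratios of -0.76 (-0.89 to -0.65) and -0.90 (-1.08 to -0.74). These were short of 2-fold but passed it under 4 and 7 of 19 alternative settings, up to -1.33 and -1.39. In barcodes of 200 to under 500 UMIs, Foxo1 was at 37.4 and 89.0 CPM and Foxo3 at 55.4 and 114 CPM. In the AHRmKO library, Foxo3 in both kinds of fibre nuclei and Foxo1 in Myh3-high nuclei thus lay below that level. The barcodes of at most 100 UMIs gave another order, with Foxo1 at 73.3 and 61.3 CPM and Foxo3 at 114 and 65.8 CPM. By that measure, Foxo1 in Myh3-high and Foxo3 in Myh3-low AHRmKO nuclei lay above free RNA. Foxo3 in both kinds of AHRfl/fl fibre nuclei lay below it. All values here are transcript levels, and FOXO proteins are controlled mainly by phosphorylation and nuclear entry, which were not measured.

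Of the degradation genes, Sqstm1, which encodes the autophagy receptor p62, was at 85.8 and 53.9 CPM in Myh3-low and Myh3-high AHRfl/fl nuclei and at 66.4 and 36.9 CPM in AHRmKO nuclei. Its log2 ratios were -0.66 and -0.84, and the first was 0.44 with the split at 0.5% Myh3. They passed 2-fold under 3 and 4 of 19 alternative settings, down to -1.45 and -1.66. In the barcodes of 200 to under 500 UMIs Sqstm1 was at 146 and 44.0 CPM, above its level in all 6 AHRfl/fl classes. Ctsl, a lysosomal protease and a classical atrophy gene, was at 249.8 and 198 CPM in the AHRfl/fl library and at 46.4 and 29.8 CPM in the AHRmKO library. Its log2 ratios were -0.34 and -0.63, and the first was 0.54 with the split at 0.5% Myh3. Ctsl was at 1466 and 89.9 CPM in the barcodes of 200 to under 500 UMIs, above its level in every class of the AHRfl/fl library.

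In all, 4 of the 10 genes (Fbxo32, Trim63, Foxo1, Fbxo31) were at least 2-fold lower in Myh3-high nuclei in each library, and 0 were at least 2-fold higher. A gene was counted with 30 or more UMIs over both sums, which all 10 genes passed. Of all genes counted this way, 2.96% were 2-fold or more lower in the AHRfl/fl library and 13.5% in the AHRmKO library, and 0.91% and 6.69% were higher. With the median gene ratio set to 0, 2.02% and 7.99% of all genes were lower and 1.58% and 9.69% higher; Fbxo31 was then at -0.88 in the AHRmKO library, short of 2-fold, and 3 of the 10 genes were lower there. The median log2 ratio of the 10 genes was -0.71 and -0.87, against -0.14 and -0.31 over all genes counted. Fbxo32 stood at the 0.0190 and 0.301 percentile of all genes and Trim63 at the 0.234 and 3.82 percentile.

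**Figure D1:**
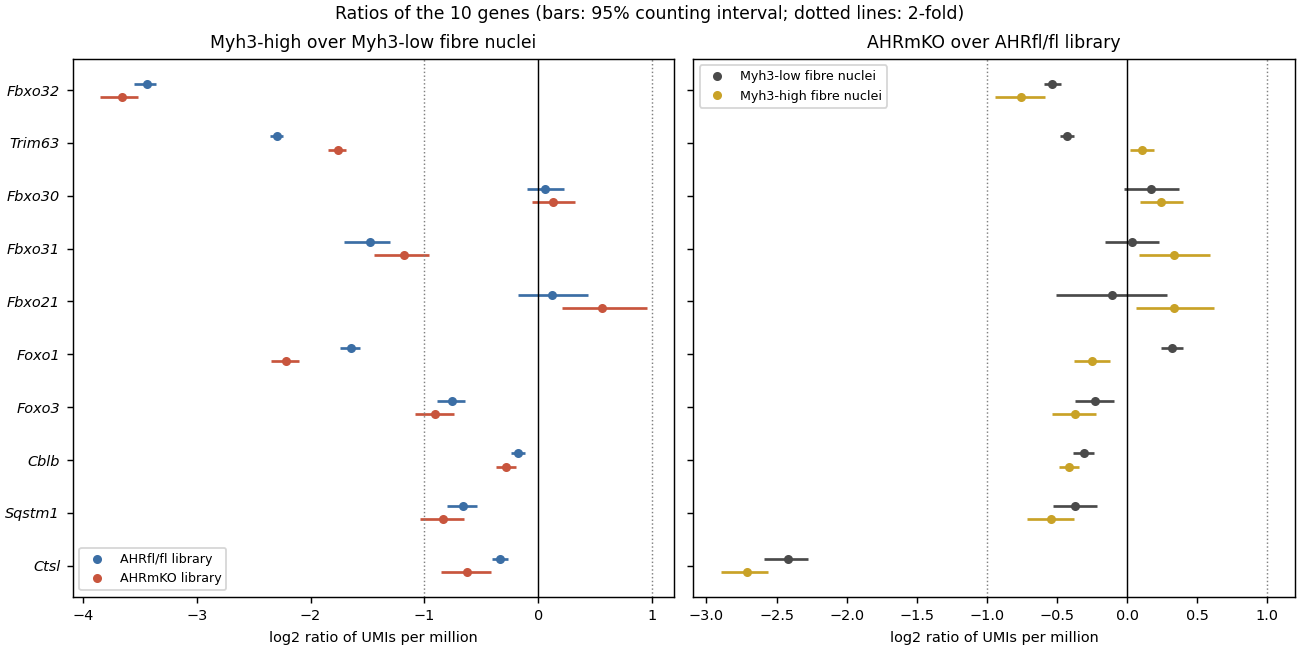
Log2 ratios of the 10 genes (points) with 95% counting intervals (bars). Left, Myh3-high over Myh3-low fibre nuclei in each library; right, the AHRmKO over the AHRfl/fl library in each kind of fibre nucleus. Dotted lines mark 2-fold. On the left Fbxo32, Trim63, Foxo1 and Fbxo31 lie past 2-fold in both libraries; on the right only Ctsl does.

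Panels of fibres and of other cell types moved with this contrast. The myofibre panel, which includes Ttn, Neb, Trdn and Dmd, was at 27833 CPM in Myh3-low and 32512 CPM in Myh3-high AHRfl/fl nuclei. In AHRmKO nuclei it was at 43165 and 56789 CPM. The macrophage panel was higher in Myh3-low nuclei: its 11 markers, all detected, summed to 1833 CPM in Myh3-low and 1252 CPM in Myh3-high AHRfl/fl nuclei, and to 1033 and 602 CPM in AHRmKO nuclei. The 6 adipocyte markers summed to 45.4 and 11.5 CPM and, with 5 of them detected in Myh3-low nuclei, to 103 and 17.6 CPM. The 8 fibroblast markers were at 843 and 747 CPM and at 512 and 241 CPM, and the 9 satellite cell markers at 782 and 699 CPM and at 1427 and 849 CPM. Markers of pericytes and smooth muscle went the other way, at 327 and 479 CPM and at 165 and 383 CPM, as did the 5 of differentiating myocytes, at 990 and 1522 CPM and at 369 and 1564 CPM. The part of the myofibre, macrophage, adipocyte, fibroblast, satellite cell, pericyte and myocyte panels in the result was not tested. Without fibre barcodes that held 3 or more UMIs of the macrophage markers, the log2 ratio of Fbxo32 was -3.94 and -4.12 and that of Trim63 -2.76 and -1.95, each larger in size than with them. If every macrophage marker UMI in them were free RNA, the share of free RNA would be 47.6% in Myh3-low and 32.5% in Myh3-high AHRfl/fl nuclei and 44.7% and 26.1% in AHRmKO nuclei. With the free RNA profile subtracted, the log2 ratio of Fbxo32 was -4.18 and -6.06, and that of Trim63 -2.71 and -2.15.

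Fbxo32, Trim63 and Foxo1 fell along the Myh3 share up to 0.5%, and for Fbxo32 the fall was greatest, in fold, across 0.1% in both libraries. In AHRfl/fl nuclei Fbxo32 was at 1471 CPM where Myh3 was under 0.01% (197 nuclei), 510 CPM at 0.01 to under 0.1% (1593 nuclei), 54.4 CPM at 0.1 to under 0.5% (3249 nuclei) and 21.5 CPM (9.81 to 40.7) at 0.5% or more (105 nuclei). In AHRmKO nuclei it was at 539, 221, 33.3 and 25.8 CPM over 1187, 663, 1402 and 519 nuclei. Trim63 went from 2146 to 657 and 159 CPM over the first 3 AHRfl/fl groups and from 771 to 312 and 167 CPM over those of AHRmKO. Above 0.5% Myh3 it was at 126 and 182 CPM. Unlike Fbxo32 in the AHRfl/fl library, Trim63 did not differ beyond its intervals between the 2 groups with 0.1% Myh3 or more. Foxo1 went from 632 to 218 and 79.9 CPM in AHRfl/fl nuclei and from 414 to 178 and 70.7 CPM in AHRmKO nuclei. At 0.5% Myh3 or more it was at 93.0 CPM (66.1 to 127) and 55.4 CPM (46.3 to 65.9). Fbxo30 was at 44.1 to 62.0 CPM over the 4 AHRfl/fl groups and at 47.9 to 66.6 CPM over those of AHRmKO, highest where Myh3 was highest, with an interval that overlaps that of at least 1 other group in each library.

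**Figure D2:**
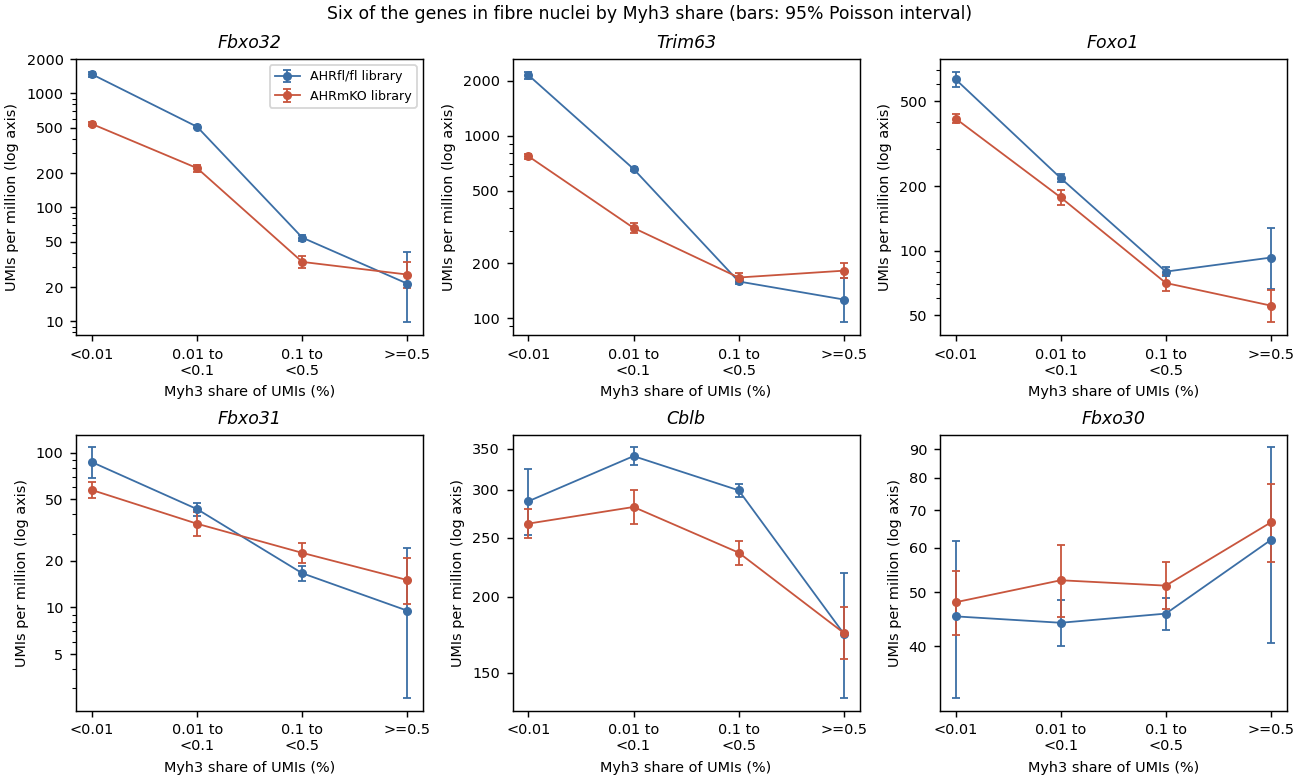
Level (CPM, log axis) of 6 of the 10 genes in fibre nuclei grouped by the share of Myh3 in their UMIs; bars are 95% Poisson intervals. Fbxo32, Trim63, Foxo1 and Fbxo31 are highest at the lowest Myh3 share, with Fbxo32 going from 1471 to 21.5 CPM in the AHRfl/fl library; Fbxo30 and Cblb vary much less.

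Myh3-low nuclei were not uniform. To compare nuclei at equal depth, each was thinned to 2000 UMIs. Fbxo32 then had no UMI in 74.5% of AHRfl/fl and 66.5% of AHRmKO Myh3-low nuclei, but 3 or more UMIs in 16.3% and 14.4%. A UMI of Fbxo32 was found in 25.5% (23.5 to 27.6) and 33.5% (31.3 to 35.7) of Myh3-low nuclei, and in 33.5% and 42.6% before thinning. In Myh3-high nuclei the thinned shares were 5.37% and 4.89%. In fibroblast-like nuclei, the compared class with the lowest Fbxo32 level in both libraries, they were 5.51% and 5.51%. The Myh3-high share of Fbxo32 was thus no higher than the fibroblast-like one, although its level was, at 53.7 against 26.2 CPM (22.5 to 30.3) in the AHRfl/fl library; in the AHRmKO library the levels overlapped, at 31.6 and 27.5 CPM. The share of Trim63 (21.3% and 25%) lay above the 3.91% and 2.61% of fibroblast-like nuclei. Median depths before thinning were 5012.5 and 3447.5 UMIs in Myh3-low, 5199 and 4402 in Myh3-high, and 3902 and 3193.5 in fibroblast-like nuclei.

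Among Myh3-low nuclei, both ligases were found together more often than if independent. Trim63 had a UMI in 80.5% of the Myh3-low AHRfl/fl nuclei with Fbxo32 and in 18.3% of those without. In the AHRmKO library these shares were 71.7% and 14.5%. Both genes were found in 20.5% and 24.0% of Myh3-low nuclei, against 8.70% and 11.2% if the 2 were found independently. In Myh3-high nuclei these shares were 2.18% against 1.14% in the AHRfl/fl library and 1.46% against 1.22% in the AHRmKO library. Within Myh3-low nuclei, Foxo1 was found in 64.5% and 62.8% of nuclei with Fbxo32 and in 11.5% and 12.3% of those without. Cblb did not follow: 41.0% against 44.5% in the AHRfl/fl library and 39.6% against 34.4% in the AHRmKO library.

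**Figure D3:**
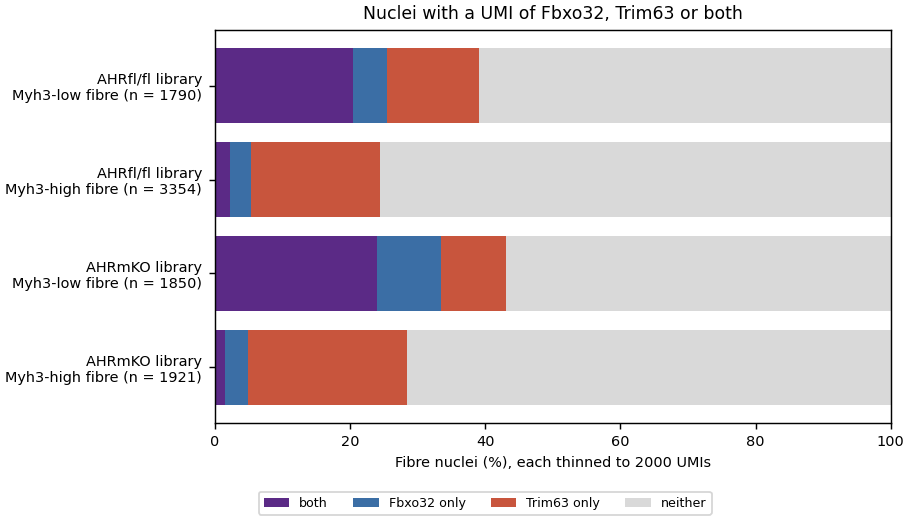
Share of fibre nuclei, each thinned to 2000 UMIs, with a UMI of both Fbxo32 and Trim63, of 1 of them, or of neither, by library and kind of fibre nucleus. Nuclei with both make up 20.5% and 24.0% of Myh3-low nuclei and 2.18% and 1.46% of Myh3-high nuclei.

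The Myh3-low nuclei with 3 or more Fbxo32 and Trim63 UMIs together numbered 384 (21.5%) in the AHRfl/fl library and 491 (26.5%) in the AHRmKO library. They are described first by genes used neither to choose them nor to call fibre nuclei, in thinned CPM, beside Myh3-low nuclei with 0 such UMIs. Foxo1 was at 1069 CPM (997 to 1145) against 64.2 CPM in the AHRfl/fl library and at 1054 against 58.9 CPM in the AHRmKO library. Fbxo31 was at 177 against 17.4 CPM and at 119 against 24.7 CPM. Foxo3 was at 177 against 79.4 CPM and at 114 against 60.3 CPM. Cblb differed less, at 292 (255 to 332) against 320 CPM (297 to 345) in the AHRfl/fl library, and at 286 against 218 CPM in the AHRmKO library. Sqstm1 was at 208 (177 to 243) against 54.1 CPM and at 121 against 46.5 CPM. Foxo1, Fbxo31, Foxo3 and Sqstm1 were thus higher, beyond their intervals, where the ligases were high, with Foxo1 farthest apart. Ctsl was higher in the AHRfl/fl library (391 against 256 CPM) and had overlapping intervals in the AHRmKO library (30.5 and 48.0 CPM). Fbxo30 was lower in the AHRmKO library, at 19.3 (11.6 to 30.2) against 66.5 CPM (55.9 to 78.4), and overlapped in the AHRfl/fl library (31.2 and 49.1 CPM). Fbxo21 had the same pattern, at 4.07 against 17.6 CPM in the AHRmKO library and, with overlapping intervals, 3.91 and 14.2 CPM in the AHRfl/fl library. The glucocorticoid targets Zbtb16 and Fkbp5 were higher too, Zbtb16 at 1250 against 102 CPM and at 3496 against 265 CPM, and Fkbp5 at 604 against 241 CPM and at 787 against 236 CPM. Ncam1, an adhesion molecule of denervated and regenerating fibres, was lower, at 607 against 4120 CPM and at 325 against 1619 CPM. The macrophage panel was lower in them as well, at 1169 against 1564 CPM and at 632 against 724 CPM. Fibre genes also differed. Dmd, used to call fibre nuclei, was at 13776 against 3636 CPM and at 11821 against 633 CPM. Myh4 was at 1372 against 403 CPM and at 3884 against 132 CPM. Myh1 was at 264 against 512 CPM and at 2475 against 241 CPM. These AHRmKO levels without ligase UMIs lay below those of barcodes of 200 to under 500 UMIs (1179, 253 and 268 CPM). Ttn, at 20258 CPM, lay above its 5360 CPM there. The part of this in the result was not tested.

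Nuclei were also grouped by their leading adult myosin gene; Myh4 is that of the fastest fibres. In Myh3-low AHRfl/fl nuclei Myh4 was at 626 and Myh1 at 506 CPM, under the 714 and 617 CPM of the barcodes of 200 to under 500 UMIs, so the groups of that library are not read as fibre types, and the part of free RNA in them was not tested. In AHRmKO nuclei they were at 1033 and 883 CPM, over 253 and 268 CPM. Among Myh3-low nuclei, Myh4 led in 452 and 447 nuclei and Myh1 in 385 and 257. Fbxo32 was at 799.8 CPM in Myh4-led and 136 CPM in Myh1-led AHRfl/fl nuclei, and at 1088 and 680 CPM in AHRmKO nuclei. Trim63 had the same order, at 1061 and 258 CPM and at 1632 and 841 CPM. In nuclei with under 3 adult myosin UMIs, 925 and 1120 in number, Fbxo32 was at 739 CPM in the AHRfl/fl library but at 76.0 CPM in the AHRmKO library. Trim63 was at 929 and 115 CPM there, so for both ligases the libraries lay farther apart in this group than in the Myh4-led and Myh1-led ones.

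Across classes, only Fbxo32, Trim63 and Fbxo31 had their highest level in Myh3-low fibre nuclei in both libraries. Trim63 came next in Myh3-high nuclei and was at 9.89 to 24.0 CPM in every other class, 45.0-fold and 58.5-fold from highest to lowest. Fbxo30 differed little between classes, from 27.2 to 46.1 CPM and from 26.1 to 54.7 CPM, and its highest neighbours did not differ beyond their intervals. Fbxo21 was at 11.1 to 13.5 CPM and 11.4 to 17.1 CPM with overlapping intervals at the top.

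Compared as whole classes, the other genes were highest outside fibres in both libraries, except Sqstm1 in the AHRmKO library. Foxo1, which also restrains vessel growth, was highest in endothelial-like nuclei, at 304 CPM (267 to 345) and 394 CPM (354 to 438), ahead of Myh3-low fibre nuclei. Parts of the Myh3-low class were higher still. Foxo1 was at 632 and 414 CPM (396 to 433) under 0.01% Myh3, the second with an interval overlapping the endothelial-like one. In Myh3-low nuclei with 3 or more Fbxo32 and Trim63 UMIs it was at 1069 and 1054 thinned CPM. Foxo3 had 196 and 139 CPM in fibroblast-like and 192 and 209 CPM in macrophage-like nuclei, and its lowest level was in Myh3-high fibre nuclei. Cblb was highest in fibroblast-like nuclei (696 and 673 CPM), then in macrophage-like nuclei (473 and 542 CPM). Sqstm1 had 97.8 CPM in macrophage-like nuclei of the AHRfl/fl library, its highest class there; in the AHRmKO library it had 66.4 CPM in Myh3-low fibre and 65.5 CPM in macrophage-like nuclei, with overlapping intervals. Ctsl was highest in macrophage-like nuclei, at 423 and 121 CPM.

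**Figure D4:**
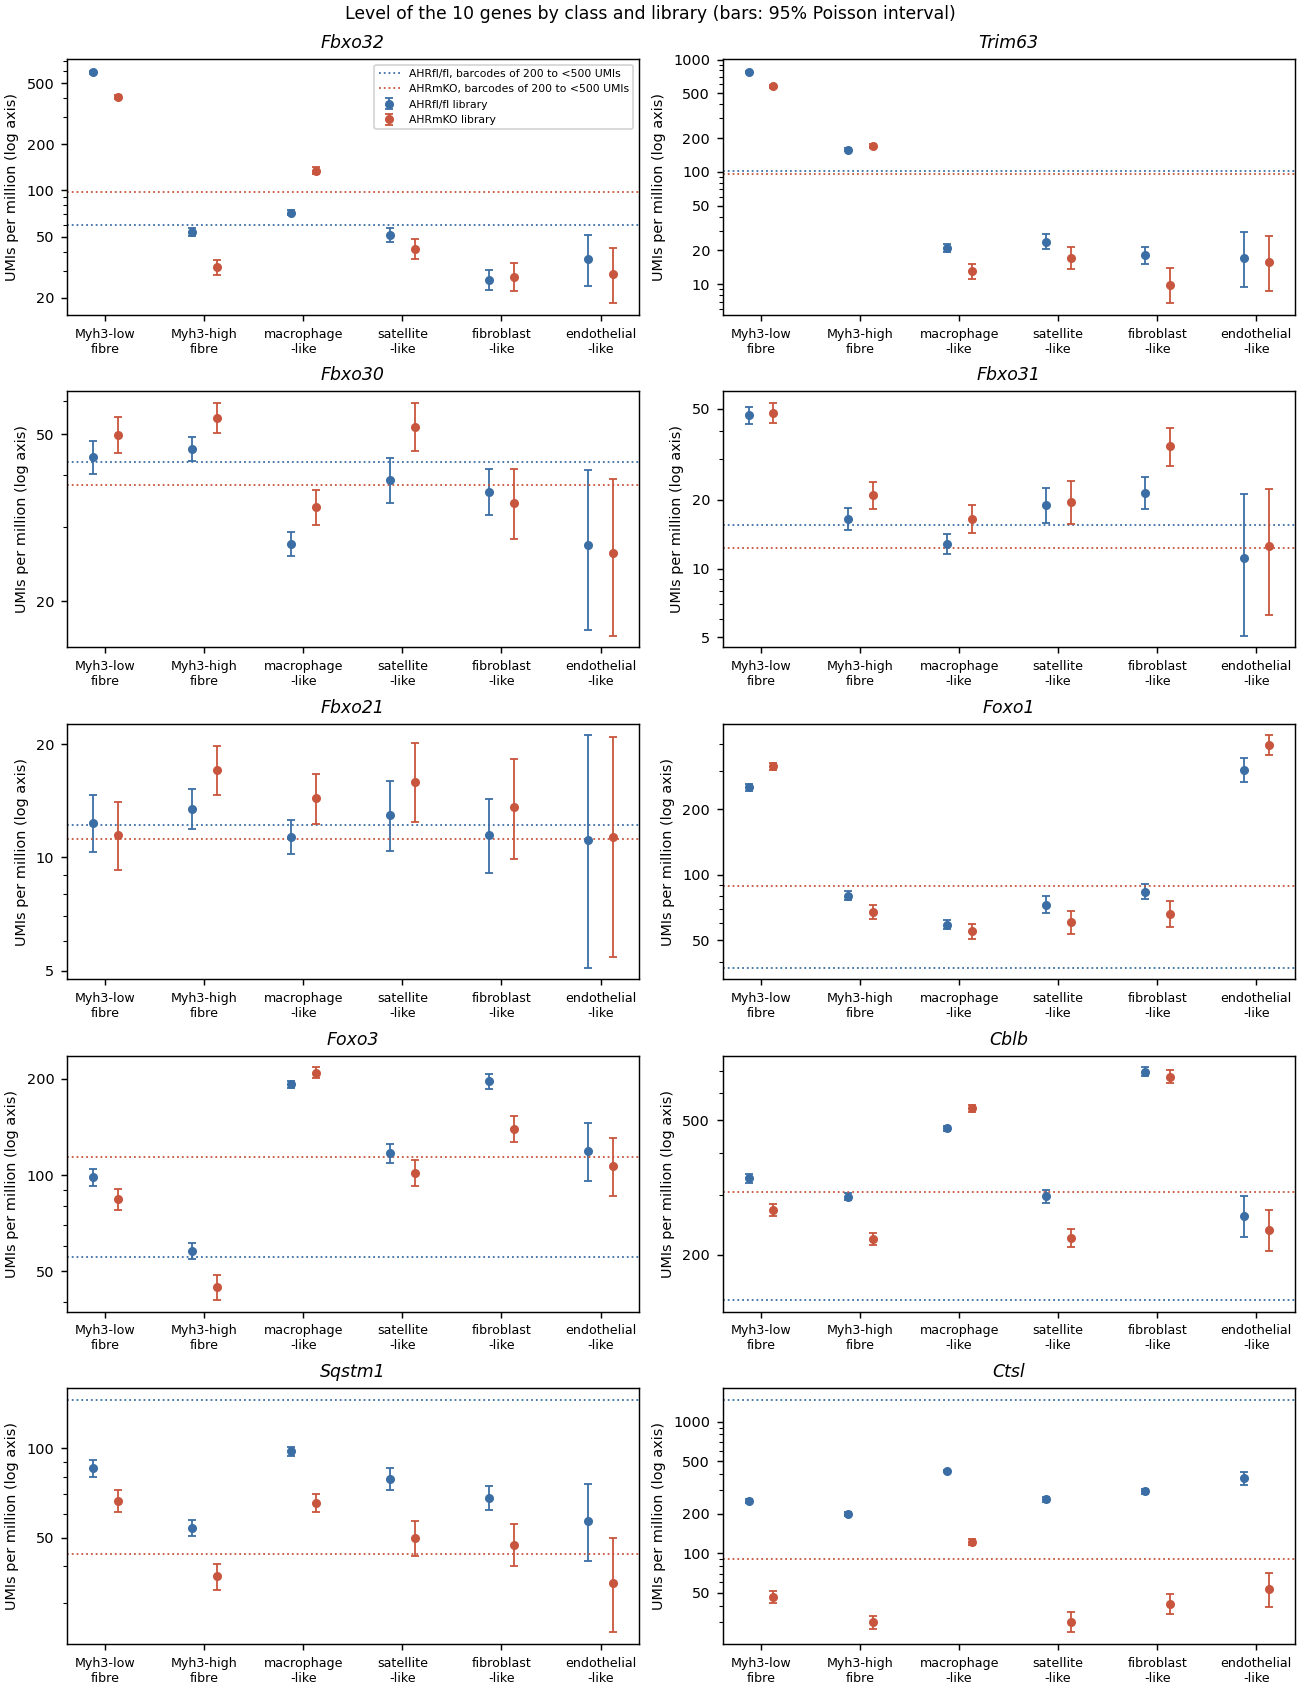
Level (CPM, log axis) of each of the 10 genes in 6 classes of nuclei of the 2 libraries. Bars are 95% Poisson intervals and dotted lines the level in barcodes of 200 to under 500 UMIs. Of these 6 whole classes, Fbxo32 and Trim63 peak in Myh3-low fibre nuclei, Foxo1 in endothelial-like, Cblb in fibroblast-like and Ctsl in macrophage-like nuclei.

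Over all macrophage-like nuclei, Fbxo32 was above the level in barcodes of 200 to under 500 UMIs, and Trim63 was not. Fbxo32 had 71.7 CPM (68.7 to 74.7) in the AHRfl/fl and 135 CPM (128 to 142) in the AHRmKO library, its second highest class, above the 59.6 and 97.6 CPM of those barcodes. In barcodes of at most 100 UMIs, a second measure of free RNA, Fbxo32 was at 86 and 99.7 CPM, so by that measure it was above free RNA in the AHRmKO library but not in the AHRfl/fl library. The macrophage-like level of Trim63 was 21.2 and 13 CPM, below the 102 and 96.6 CPM it had in the larger of these barcodes. Macrophage-like nuclei held 3.39 (3.10 to 3.70) and 10.3 (8.78 to 12.2) Fbxo32 UMIs per Trim63 UMI. The barcodes of 200 to under 500 UMIs held 0.587 (0.555 to 0.620) and 1.01 (0.970 to 1.05), those of at most 100 UMIs 0.663 and 0.677, and Myh3-low fibre nuclei 0.755 and 0.702. Values above those of the barcodes were not particular to macrophage-like nuclei. Satellite-like nuclei held 2.15 and 2.41, fibroblast-like nuclei 1.44 and 2.78, and endothelial-like nuclei 2.07 and 1.79. The last had an interval (0.893 to 3.72) that spans 1.01.

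The level followed the macrophage programme. In nuclei in which Gpnmb and Atp6v0d2, genes of lipid-laden and phagocytic macrophages, led Mrc1 and F13a1, genes of resident-type macrophages, Fbxo32 was at 94.1 CPM (88.7 to 99.8) in 3105 AHRfl/fl nuclei and at 196 CPM (184 to 208) in 938 AHRmKO nuclei. Where Mrc1 and F13a1 led, it was at 43.6 CPM (39.2 to 48.2) in 1917 nuclei and 67.5 CPM (58.1 to 78.0) in 590 nuclei. Both of these levels lay below the 59.6 and 97.6 CPM of barcodes of 200 to under 500 UMIs. Trim63 was at 19.7 against 22.7 CPM and at 7.95 against 14.8 CPM in the same groups. Ctsl had the order of Fbxo32, at 515 against 358 CPM and at 153 against 96.7 CPM. So did Cblb, at 533 against 413 CPM and at 706 against 418 CPM. Beyond their intervals, Sqstm1 had it in the AHRfl/fl library only (115 against 77.1 CPM). Foxo3 had it in the AHRmKO library only (220 against 177 CPM).

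**Figure D5:**
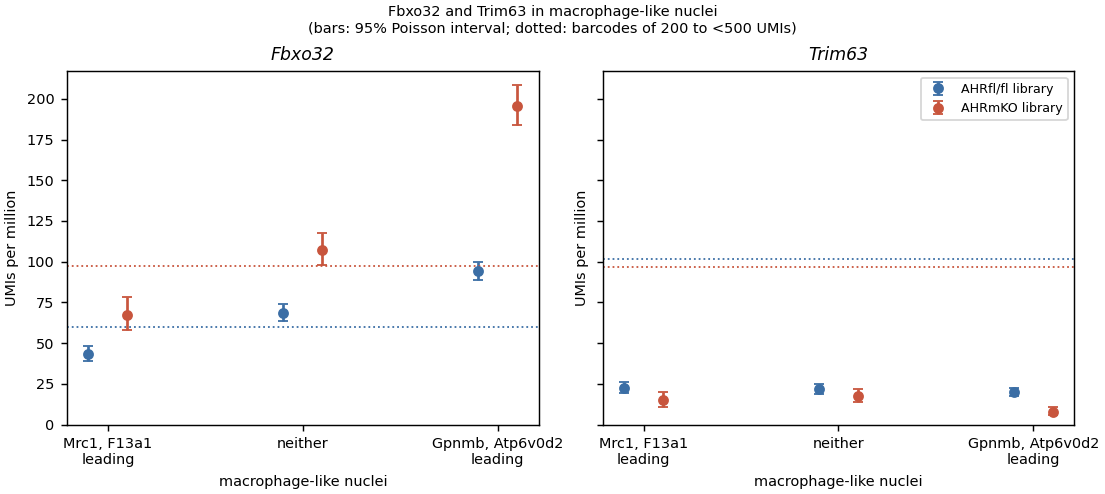
Level (CPM) of Fbxo32 and Trim63 in macrophage-like nuclei grouped by their leading genes; bars are 95% Poisson intervals and dotted lines the level in barcodes of 200 to under 500 UMIs. Fbxo32 goes from 43.6 to 94.1 CPM in the AHRfl/fl library and from 67.5 to 196 CPM in the AHRmKO library; Trim63 stays at or under 22.7 CPM.

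Between genotypes, none of the 10 genes but Ctsl differed by 2-fold or more in fibre nuclei. In Myh3-low nuclei 1 gene was lower in the AHRmKO library and 0 were higher, with 17.1% and 11.2% of all genes counted lower and higher. In Myh3-high nuclei it was again 1 and 0, with 17.2% and 5.94% of all genes. Fbxo32 had log2 ratios (AHRmKO over AHRfl/fl) of -0.53 (-0.60 to -0.47) and -0.75 (-0.95 to -0.58) in Myh3-low and Myh3-high nuclei, and Trim63 of -0.43 (-0.48 to -0.38) and 0.11 (0.02 to 0.19). Foxo1 was at 0.32 (0.24 to 0.40) and -0.25 (-0.38 to -0.12). In the other 4 classes 0 of the genes were 2-fold or more higher and 1, again Ctsl, was lower. All genes counted were higher and lower at 2.95% and 20.4% in macrophage-like, 4.53% and 15.4% in satellite-like, 4.83% and 16.1% in fibroblast-like, and 4.04% and 13.1% in endothelial-like nuclei, where 7 of the 10 genes had enough UMIs.

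The direction of the ligases between genotypes depended on which nuclei were taken. In Myh3-low nuclei, Fbxo32 and Trim63 were each lower in the AHRmKO library under 18 of 19 alternative settings. Fbxo32 in Myh3-high nuclei was also lower under 18 of 19, by 2-fold or more under 7 of them, and at 0.26 with the split at 0.5% Myh3. Trim63 there had a ratio above 0 under 16 of 19. In Myh3-low nuclei led by Myh4, Fbxo32, Trim63 and Foxo1 were all higher in the AHRmKO library, with log2 ratios of 0.44, 0.62 and 1.23. The Myh4-led groups of the 2 libraries were not alike. Their median depths were 5516.5 UMIs in the AHRfl/fl and 3045 UMIs in the AHRmKO library. Myh4 in Myh3-low nuclei lay under its level in barcodes of 200 to under 500 UMIs in the AHRfl/fl library only. In nuclei with under 0.01% Myh3, Fbxo32, Trim63 and Foxo1 were all lower, at -1.45, -1.48 and -0.61. The choice of nuclei thus turned the sign for all 3 genes, and the free Myh3 of the AHRfl/fl library bears on which nuclei fall on either side of the split. Its part in the result was not tested. Ctsl was lower, with log2 ratios of -2.42 and -2.71, but its log2 ratio was also between -3.08 and -1.80 in the other 4 classes, and its level was 1466 against 89.9 CPM in the barcodes of 200 to under 500 UMIs and 733 against 236 CPM in those of at most 100 UMIs. With the profile of 200 to under 500 UMIs subtracted, Ctsl was at 0 in both kinds of AHRfl/fl fibre nuclei and at 9.91 and 8.51 CPM in those of AHRmKO.

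The wider lists were set beside the 10 genes in the contrast of Myh3-high over Myh3-low nuclei, AHRfl/fl first. Each count stands beside 2.96% and 13.5% of all genes lower and 0.91% and 6.69% higher. In the AHRmKO library the lower counts of the ligase, autophagy, proteasome, IGF and denervation lists were near or under that share. All 14 genes of the glucocorticoid list, which includes the receptor gene Nr3c1, had ratios below 0 in both libraries. Of these, 6 and 10 were 2-fold or more lower. The medians were -0.98 and -1.58, against -0.14 and -0.31 over all genes counted. Zbtb16, a transcription factor gene induced by glucocorticoids, was at 347 and 93.7 CPM in Myh3-low and Myh3-high AHRfl/fl nuclei (log2 ratio -1.88) and at 1091 and 90.1 CPM in AHRmKO nuclei (-3.59). Tsc22d3 (GILZ) was at -1.59 and -1.66 and Fkbp5 at -0.98 and -2.02, while Nr3c1, the glucocorticoid receptor gene itself, was at -0.29 and -0.78.

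Of 22 other FOXO genes and targets, 4 and 6 were lower and 0 and 1 higher. Pdk4, which turns fibres from glucose to fat, was at -2.08 and -1.70, and Irs2, an insulin receptor substrate, at -1.53 and -1.89, while Cdkn1a was at 0.28 and 0.51. Of 22 other muscle ubiquitin ligases, 1 and 1 were lower and 0 and 3 higher. Fbxo40, an F-box gene of muscle that targets IRS1, was at -2.35 and -2.74. Trim55 (MuRF2), a close relative of Trim63, went the other way, at 0.54 and 1.75, as did Klhl41, at 0.63 and 1.61.

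Of 23 autophagy genes 0 and 1 were lower, with medians of -0.28 and -0.39 against -0.14 and -0.31 over all genes counted. The lower gene was Optn, an autophagy receptor, at -0.71 and -1.45. Bnip3, a mitophagy receptor, was at -0.86 and -0.97, short of 2-fold. None of 31 proteasome genes passed 2-fold, and their medians were -0.05 and 0.03. Of 20 genes of IGF and AKT signalling, 1 and 3 were lower and 0 and 5 higher; Pik3r1, a regulatory subunit of PI3-kinase, was at -1.56 and -2.67 and Igf2 at 0.87 and 2.89. Of 13 denervation genes counted, without Myh3, which defined the split, 1 and 2 were lower and 0 and 6 higher. Hdac4, which acts in denervated muscle, was at -1.55 and -1.30, and Ncam1 was at 0.63 and 1.67.

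Between genotypes in Myh3-low nuclei, 11.2% of all genes counted were 2-fold or more higher and 17.1% lower in the AHRmKO library. The ligase and autophagy lists each had 3 genes higher, of 22 and 23, and the former 1 and the latter 0 lower. Trim55 was the lower ligase, at -1.87 in Myh3-low and -0.66 in Myh3-high nuclei. The glucocorticoid list of 14 genes had 2 higher and 2 lower. Zbtb16 was at 1.65 but at -0.06 in Myh3-high nuclei, and Mt1 and Mt2, which encode metallothioneins, were at -2.96 and -2.15 and, in Myh3-high nuclei, at -3.09 and -3.37. Of 31 proteasome genes 7 were lower, Psmb5 at -1.99. Of 13 denervation genes without Myh3, 5 were lower and 1 higher, with Myog at -1.69 and Hdac9 at -1.59. In Myh3-high nuclei 1 of these 13 was lower, and the medians of the list were -0.36 in Myh3-low and 0.07 in Myh3-high nuclei. The FOXO list had 0 higher and 2 lower of 22, and that of IGF and AKT signalling 1 and 2 of 20. Outside fibres, 10 of 31 proteasome genes were lower in the endothelial-like class (13.1% of all genes), 8 among macrophage-like (20.4%) and 8 among fibroblast-like nuclei (16.1%), and 4 in the satellite-like class (15.4%), where the share of the list was under that of all genes. Denervation genes, here with Myh3, were lower outside fibres too. These were 6 of 11 in endothelial-like, 8 of 14 in macrophage-like, 5 of 13 in fibroblast-like and 3 of 13 in satellite-like nuclei. The medians were -1.05, -1.12, -0.71 and -0.26, and 1 gene was higher, in macrophage-like nuclei. Free RNA of several of these genes differed between the libraries. In barcodes of 200 to under 500 UMIs, AHRfl/fl first, Chrna1 was at 1002 and 80.8, Chrng at 248 and 63.6, and Myh3 at 2912 and 427 CPM. The differentiating myocyte panel, which includes Myog, was at 3774 and 437 CPM there. Ncam1 went the other way, at 823 and 1536 CPM. The part of free RNA in these counts was not tested.

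The genes whose profile was most like that of Fbxo32 were Klhl38 (Pearson r = 0.908), Tbc1d1, Pvalb, Gbe1 and Lpin1. Those most like Trim63 were Mapt (r = 0.976), Myoz1, Myot, Mlip and Trp63. The measure was the correlation of log2(CPM + 10) over 13 class sums of the 2 libraries, among 7698 genes, and classes of 1 library share its depth and free RNA. Fbxo32 and Trim63 had r = 0.741 with each other, and Fbxo32 and Foxo1 r = 0.364. Klhl38 was at 34.2 and 66.0 CPM in Myh3-low and 2.47 and 1.99 CPM in Myh3-high nuclei.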

How the data were processed

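The 10 genes, the marker panels and the wider lists were chosen with earlier results of these data known. The deposited values are unnormalised UMI counts of the authors, for all barcodes. Per the submitters' processing notes, Cell Ranger 7.0.1 and mm10 were used; intron and strand settings are not given in the sources used here. Barcodes with 2000 or more UMIs were kept. A non-fibre class needed 3 UMIs from 2 markers of its panel and 2 times the next panel, a gate set after the data had been seen; 4 classes with 50 or more barcodes in both libraries were compared. Counts were summed per class and library. Log2 ratios have 0.5 CPM added on both sides, which understates changes of low genes, and exact conditional binomial intervals at 95%; shares have exact Clopper-Pearson intervals. The wider lists' named genes are the 2 highest and 2 lowest ratios per comparison with 30 UMIs and 20 CPM. Ncam1, Zbtb16 and Fkbp5, shown within Myh3-low nuclei, were chosen after their values were seen. So were the grouping of Myh3-low nuclei by their Fbxo32 and Trim63 UMIs and that of macrophage-like nuclei by their leading genes. Doublets stayed in. Leaving out Scrublet's top scores (1489 of 19056 and 347 of 9015 barcodes) was an alternative. The work used Python 3.11.15, numpy 2.4.6, scipy 1.17.1, pandas 2.3.3 and scanpy 1.11.5, and the ratio code was tested on simulated data.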

Additional observations from a re-analysis of the deposited data

Results flagged for a closer look

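For 5 genes the AHRmKO over AHRfl/fl log2 ratio had opposite signs in Myh3-low fibre nuclei and in another class, with both counting intervals on either side of 0. With 1 library per group, these differences were not tested. Fbxo32 was at -0.53 in Myh3-low fibre nuclei and at 0.91 in macrophage-like nuclei. Trim63 was at -0.43 in Myh3-low and 0.11 in Myh3-high fibre nuclei. Foxo1 was at 0.32 in Myh3-low fibre nuclei, against -0.25 in Myh3-high fibre, -0.27 in satellite-like and -0.34 in fibroblast-like nuclei. Foxo3 was at -0.23 in Myh3-low fibre and 0.12 in macrophage-like nuclei, and Cblb at -0.31 and 0.20. Free RNA of these 3 genes also differed between the libraries. In barcodes of 200 to under 500 UMIs, AHRfl/fl first, Fbxo32 was at 59.6 and 97.6, Foxo3 at 55.4 and 114, and Cblb at 147 and 307 CPM. In those of at most 100 UMIs the levels were 86 and 99.7, 114 and 65.8, and 243 and 235 CPM. The part of free RNA in these differences was not tested. Over the 19 alternatives, the value in Myh3-low fibre nuclei changed sign under 1 for Fbxo32, 1 for Trim63, 2 for Foxo1, 2 for Foxo3 (0.18 and 0.21) and 0 for Cblb.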

How the results depend on the processing

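No paired analysis was possible because each group has 1 library. The ratios of the 10 genes in the 4 fibre comparisons, and the counts past 2-fold, were recomputed under 19 alternatives. Of the class levels, only the count of genes highest in Myh3-low fibre nuclei in both libraries was recomputed. That was done for other UMI minima, a limit on the mitochondrial share, Scrublet and thinning. Macrophage groups, co-detection, adult myosin groups and the wider lists were not recomputed. Of the 19, 3 were chosen after seeing the data (the profile of at most 100 UMIs, the split at 0.01% Myh3, and Myh4-led nuclei only). The counts of 4 genes lower in Myh3-high nuclei stayed within 1.5 times in both libraries under all 19. The log2 ratio of Fbxo32 ranged from -4.60 to -2.82 (AHRfl/fl) and from -6.06 to -2.78 (AHRmKO), past 2-fold under all 19. Trim63 was past 2-fold under all 19 in both libraries, Foxo1 under 18 and 19, and Fbxo31 under 19 and 16. The count of genes higher in Myh3-high nuclei became 1 in the AHRfl/fl library at the 0.01% split. In the AHRmKO library it became 1 with fibre genes at 2% or more, 1 with the profile of at most 100 UMIs subtracted, and 2 in Myh4-led nuclei. Between genotypes in Myh3-low nuclei, the count lower became 2 at the 0.05% split, 3 at 0.01%, 2 in Myh4-led nuclei and 0 with the profile of at most 100 UMIs subtracted. The count higher became 2 with the 200 to under 500 profile subtracted and 1 in Myh4-led nuclei. In Myh3-high nuclei the count lower became 2 at splits of 0.01%, 0.05% and 0.5%, in Myh4-led nuclei, after thinning, without macrophage-marker barcodes, and with the 200 to under 500 profile subtracted, where the count higher became 2. That subtraction turned the log2 ratio of Ctsl to 4.38 in Myh3-low and 4.17 in Myh3-high nuclei, with AHRfl/fl at 0. Subtracting the profile of at most 100 UMIs left Ctsl at 0 in all fibre nuclei, so it gave no ratio. The median gene ratio of Myh3-high over Myh3-low nuclei was -0.14 and -0.30, and setting it to 0 left 4 genes lower in the AHRfl/fl library and 3 in the AHRmKO library, without Fbxo31. The cause of these shifts was not tested. With 1 library per group, depth limits only the counting error.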
